A study of Mus musculus with 28 samples.

Results

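The platelet-derived growth factor (PDGF) ligands and receptors were described here as 7 genes, chosen by name: the ligands Pdgfa, Pdgfb, Pdgfc and Pdgfd, the receptors Pdgfra and Pdgfrb, and the receptor-like gene Pdgfrl. They are 7 of the 54876 genes in either of the tables used, and all 7 passed the filters on low values. RNA sequencing was used in mouse embryonic fibroblasts in the course of reprogramming to pluripotency (12 libraries) and in induced pluripotent stem cells, iPSC (6 libraries), out of 28 samples in the series. Another 10 samples, of H3K9me2 ChIP, were left aside. The study asks, from its title, in which settings reprogramming needs the enzymes that dimethylate H3K9.

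The tested condition with most agents, DOX+3C+UNC, was doxycycline with the 3C compounds and UNC0638. DOX+3C had doxycycline and 3C, DOX+UNC had doxycycline and UNC0638, and DOX had doxycycline alone, with 3 libraries in each group. The iPSC groups were iPSC UNC, derived with UNC0638 over the first 48 hours, and iPSC DMSO, derived with the solvent, again with 3 libraries each. Doxycycline (1 µg/ml) switched on the reprogramming transgenes. UNC0638 (1 µM) inhibits the products of Ehmt1 and Ehmt2, which methylate histone H3 at lysine 9. 3C was a mix of L-ascorbic acid (50 µg/ml), 250 nM of an inhibitor of the TGF-b type I receptor kinase (inhibitor II) and the GSK3 inhibitor CHIR99021 (3 µM), which were not tested apart. According to the labels, all cells were heterozygous for Rosa26-rtTA, which lets doxycycline act, and for an Oct4-GFP reporter, and carried either an inducible OKSM allele (heterozygous) or an inducible OKS allele (homozygous); which library had which allele was not given. They came from embryos of day E13.5 to E15.5 and were plated on irradiated feeder cells, a layer that is usually made of fibroblasts. The labels do not date the RNA of the 12 reprogramming libraries or say whether replicates were separate cultures, so p-values measure the spread between libraries, which may be technical.

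PDGFs are secreted dimers that drive the growth and migration of mesenchymal cells. PDGF-A and PDGF-B are secreted in active form after cleavage inside the cell, while PDGF-C and PDGF-D carry a CUB domain that proteases outside the cell remove. PDGF-A and PDGF-C act through the alpha receptor, PDGF-D mainly through the beta receptor, and PDGF-B through both. The receptors are tyrosine kinases that recruit SH2-domain proteins and signal to the Ras, PI3-kinase and phospholipase C pathways. Pdgfrl encodes a protein like the extracellular part of a PDGF receptor, without a kinase. Embryonic fibroblasts carry both receptors and classically proliferate in response to PDGF.

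Pdgfra, Pdgfc and Pdgfd are 3 of the 4 members that were higher in DOX+3C+UNC than in DOX+3C. For that reason the 250 bases before 1 RefSeq start of each (build GRCm38.p6, plus strand in each case) are printed. The Pdgfc window ends just before the annotated gene start (81036416). The Pdgfra window lies inside the annotated gene, which starts at 75151322, and the Pdgfd window runs across the gene start (6168363). Positions below count back from the starts used for the windows. Capitals mark matches to the motifs searched, on either strand.
Pdgfra, chr5:75152001-75152250: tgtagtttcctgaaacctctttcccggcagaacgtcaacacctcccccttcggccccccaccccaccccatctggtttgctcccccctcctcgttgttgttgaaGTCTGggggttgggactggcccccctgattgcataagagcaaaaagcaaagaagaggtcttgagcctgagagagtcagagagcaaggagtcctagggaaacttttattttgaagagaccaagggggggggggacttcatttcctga
Pdgfc, chr3:81036166-81036415: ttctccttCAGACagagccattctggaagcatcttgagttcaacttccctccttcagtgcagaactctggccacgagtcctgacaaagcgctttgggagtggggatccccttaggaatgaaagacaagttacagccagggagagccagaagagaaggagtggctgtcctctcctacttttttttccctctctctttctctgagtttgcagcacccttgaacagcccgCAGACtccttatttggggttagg
Pdgfd, chr9:6168236-6168485: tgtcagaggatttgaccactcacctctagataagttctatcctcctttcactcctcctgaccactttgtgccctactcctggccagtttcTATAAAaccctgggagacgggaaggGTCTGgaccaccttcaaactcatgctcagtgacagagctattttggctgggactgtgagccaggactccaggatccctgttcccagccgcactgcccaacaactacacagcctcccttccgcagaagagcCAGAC
The TATA box was searched as TATAAA, which 12.3% of the 32536 windows of this length in the RefSeq set held on either strand. The GC box was searched as GGGCGG (33.0% of windows) and the binding motif of SMAD proteins, which carry TGF-beta signals, as CAGAC (42.2%). The CCAAT motif by its own letters was in 33.8% and the motif of TCF, the Wnt pathway factor, searched as CTTTGA, in 13.9%. The motifs do not overlap one another. The Pdgfd window had TATAAA from base -160 to -155, counted back from the start, and 2 SMAD matches, from -135 to -131 and from -5 to -1. The Pdgfc window had 2 (from -242 to -238 and from -23 to -19) and the Pdgfra window 1 (from -146 to -142). The first and second of 2 Pdgfa windows held 1 and 2 matches to GGGCGG and none to CAGAC. None of these windows held CCAAT or CTTTGA. Windows were searched for 4 of the 7 members. Pdgfrb, the other member that was higher in DOX+3C+UNC than in DOX+3C, was left out of this search. Its upstream bases are therefore not described, and neither are those of Pdgfb and Pdgfrl. A match is a description of letters, not a bound site.

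Libraries held between 10.6 and 20.2 times 1e+06 reads in genes in the reprogramming table, and between 21.6 and 25.4 times 1e+06 in the iPSC table. Values of the reprogramming libraries are normalised counts, which are reads divided by 1 factor per library by the authors; those of iPSC are CPM, counts per 1e+06 reads in all genes of the library. The fibroblast label was set against 8 markers. Vim and Col1a2 led the sum, and their means were 5744 and 2595 CPM in DOX+3C+UNC, against 5056 and 5316 CPM in DOX. Lum, a proteoglycan of mature fibroblasts named after its value was seen, was near 0 in each of the 4 groups, at a mean of at most 2.32 CPM. Of 8 pluripotency markers, 1 was tested in the reprogramming libraries, where the 8 summed to at most 29.2 CPM per library, against at least 3783 CPM in every iPSC library. Most of that sum was Fgf4 (7.14 CPM in DOX+3C+UNC, against 26.6 CPM in DOX), while Dppa4 and Dppa5a were at 0 in each of the 4 groups.

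3C was accompanied by much lower Pdgfb, Pdgfd and Pdgfrl, with and without UNC, and UNC by higher Pdgfrb, Pdgfd, Pdgfc and, narrowly, Pdgfra where 3C was present. In the absence of 3C, 0 of the 7 passed the test for UNC, though Pdgfrb did when the fit was blocked by replicate number. In iPSC, Pdgfrb was higher after UNC, and no other member passed the test. Calls are at an adjusted p below 0.05 over all genes tested (Benjamini-Hochberg), from limma on log2(value + 1) for the reprogramming libraries and from edgeR's quasi-likelihood test for iPSC. Fold changes of the reprogramming libraries are on the log2(value + 1) scale, which understates the change of genes with few reads.

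**Figure D1:**
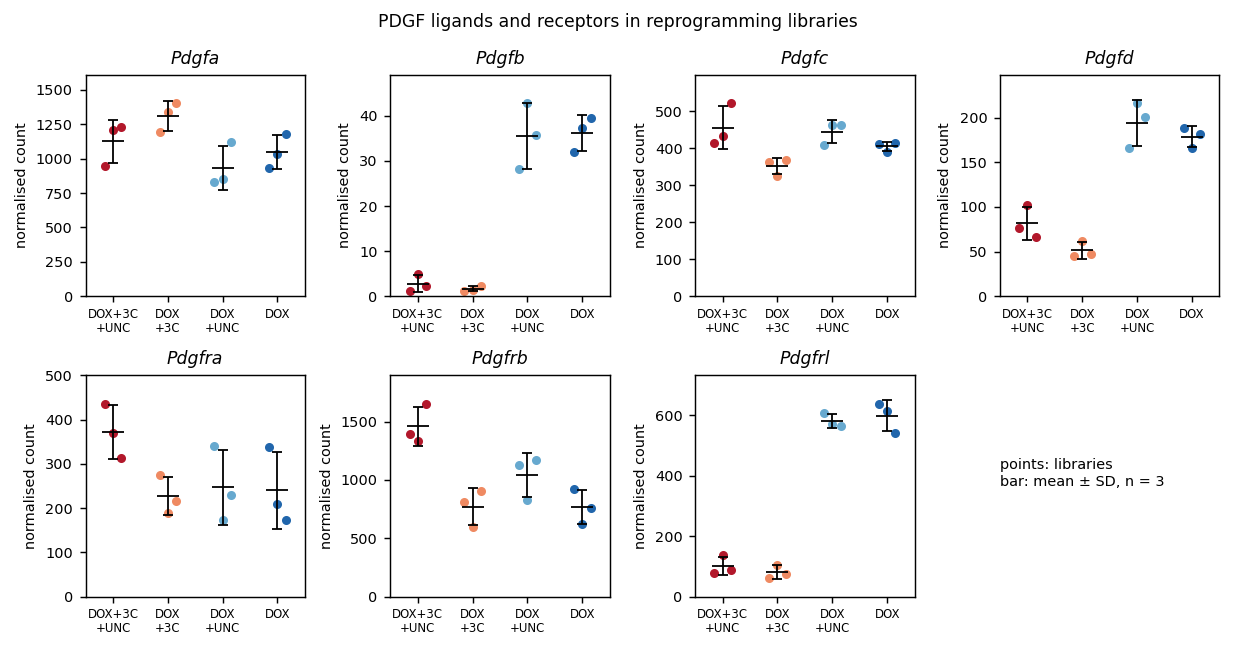
Normalised count (y axis, linear, from 0) of the 7 genes in each reprogramming library. Points are libraries, horizontal bars are group means and whiskers are SD (n = 3); Pdgfb, Pdgfd and Pdgfrl sit low in both groups with 3C, and Pdgfrb is highest in the DOX+3C+UNC libraries (1333 to 1654).

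Pdgfa, the long-known ligand of the alpha receptor, varied little between groups. It had 947, 1205 and 1229 normalised counts in DOX+3C+UNC, 1193, 1337 and 1401 in DOX+3C, 827, 849 and 1120 in DOX+UNC, and 929, 1034 and 1180 in DOX. All DOX+3C libraries lay above all DOX and all DOX+UNC libraries, and all other pairs of groups overlapped. Pdgfa rose with 3C in the absence of UNC (1310 ± 106 in DOX+3C, against 1048 ± 126 in DOX, SD, n = 3 each; log2 fold change 0.33 ± 0.12 SE, limma adjusted p = 0.0266). That call was lost without DOX replicate 1 (0.24, limma adjusted p = 0.130), and also without DOX replicate 2 or DOX+3C replicate 2 or 3. With UNC present, the difference made by 3C was of like size but not called (0.28 ± 0.12, limma adjusted p = 0.0587). The replicate numbers paired the libraries in both 3C comparisons and in that of UNC with 3C, by a check of how same-numbered libraries deviate from their group means. The main fits, whose p-values are given unless a block is named, did not use this pairing. Blocked by replicate number, Pdgfa was called for 3C with UNC (0.28, limma adjusted p = 0.00104). UNC with 3C gave -0.22 ± 0.12 (limma adjusted p = 0.237; -0.22 and 0.0186 blocked by replicate number).

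Pdgfb, the ligand of both receptors, was nearly lost from the libraries with 3C. It had 1.17, 4.85 and 2.21 normalised counts in DOX+3C+UNC, which were 1, 4 and 2 reads, and 1.19, 1.48 and 2.32 in DOX+3C, which were 1, 2 and 3 reads. DOX+UNC had 28.2, 42.8 and 35.7, and DOX had 31.9, 37.2 and 39.5. The groups with and without 3C did not overlap, and groups with the same 3C status did. With so few reads, ratios were taken on summed reads with 95% intervals that cover counting error only. Pdgfb was 21-fold lower in DOX+3C than in DOX (6 against 84 reads, interval 9.23 to 58.7). It was 12.9-fold lower in DOX+3C+UNC than in DOX+UNC (7 against 112 reads, 6.07 to 32.9). Pdgfb passed the filter on low values only through the groups without 3C, so a fitted call would have been set by the filter and is not used for these comparisons. At 6 and 7 reads a difference by UNC within 3C was not detectable at this depth (7 reads in DOX+3C+UNC against 6 in DOX+3C, ratio 1.57, interval 0.452 to 5.66).

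Pdgfc, the CUB-domain ligand of the alpha receptor, moved within a narrow range. It had 414, 433 and 522 normalised counts in DOX+3C+UNC, 362, 327 and 368 in DOX+3C, 409, 464 and 464 in DOX+UNC, and 411, 392 and 414 in DOX. The DOX+3C libraries were the lowest, below all libraries of each other group. Pdgfc rose with UNC in the presence of 3C (456 ± 57.6 in DOX+3C+UNC, against 352 ± 22.2 in DOX+3C, SD, n = 3 each; 0.37 ± 0.09, limma adjusted p = 0.0123), a call lost without DOX+3C replicate 2 (0.0710) or DOX+3C+UNC replicate 3 (adjusted p = 0.0794). For 3C without UNC it gave -0.21 ± 0.09 (limma adjusted p = 0.067), called when blocked by replicate number (-0.21, limma adjusted p = 0.0341). For 3C with UNC it gave 0.03 ± 0.09 (limma adjusted p = 0.826).

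Pdgfd, the CUB-domain ligand of the beta receptor, was lower with 3C and partly higher again when UNC was added to 3C. It had 76.9, 102 and 66.3 normalised counts in DOX+3C+UNC, 45.1, 62.2 and 47.1 in DOX+3C, 166, 216 and 201 in DOX+UNC, and 189, 166 and 182 in DOX. The libraries thus fell into 3 levels that did not overlap: DOX+3C lowest, DOX+3C+UNC next, and the groups without 3C highest and overlapping each other. Pdgfd fell with 3C alone (51.5 ± 9.36 in DOX+3C, against 179 ± 11.8 in DOX, SD, n = 3 each; -1.79 ± 0.17, limma adjusted p = 7.38e-08). It fell with 3C in the presence of UNC as well (81.7 ± 18.2 in DOX+3C+UNC, against 194 ± 25.8 in DOX+UNC; -1.25 ± 0.17, limma adjusted p = 6.07e-06). UNC added to 3C raised it (0.65 ± 0.17, limma adjusted p = 0.0162). That increase was not called without DOX+3C replicate 1 or 3 or DOX+3C+UNC replicate 2, where limma's adjusted p was 0.0601, 0.0581 and 0.0712, nor with the compared groups alone (adjusted p = 0.0556).

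Pdgfra, the receptor of PDGF-A and PDGF-C, was highest in DOX+3C+UNC. It had 436, 369 and 314 normalised counts there, 274, 190 and 216 in DOX+3C, 340, 173 and 229 in DOX+UNC, and 338, 210 and 173 in DOX. The DOX+3C+UNC libraries lay above those of DOX+3C but overlapped those of DOX+UNC and DOX, in each of which 1 library was higher than the other two. The difference between DOX+3C+UNC and DOX+3C (373 ± 61.0 against 227 ± 43.2, SD, n = 3 each) was called by a narrow margin (0.72 ± 0.23, limma adjusted p = 0.0499). The call was lost in 11 of 21 alternative settings, among them DESeq2 (0.73, adjusted p = 0.134) and leaving out any DOX+3C+UNC library (0.0628 to 0.171), DOX+3C replicate 2 (0.185) or 3 (0.113), DOX replicate 2 (0.0564) or DOX+UNC replicate 3 (0.0596); the 0.72 itself stayed between 0.60 and 0.86. DOX+3C+UNC was also above DOX+UNC (0.63 ± 0.23, limma adjusted p = 0.03) and above DOX (0.68 ± 0.23, limma adjusted p = 0.0203), neither of which DESeq2 called (adjusted p = 0.158 and 0.124). The DOX+UNC call was lost without DOX+UNC replicate 2 or 3 or DOX+3C+UNC replicate 1 or 2, and the DOX call without DOX replicate 2 or 3 or DOX+3C+UNC replicate 1. 3C alone gave -0.04 ± 0.23 (limma adjusted p = 0.894), with an interval from -0.53 to 0.44.

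Pdgfrb, the receptor of PDGF-B and PDGF-D, rose with UNC where 3C was present. It had 1391, 1333 and 1654 normalised counts in DOX+3C+UNC, 808, 595 and 904 in DOX+3C, 1128, 827 and 1174 in DOX+UNC, and 918, 622 and 761 in DOX. All DOX+3C+UNC libraries lay above those of the other 3 groups, and those 3 overlapped one another. UNC with 3C raised Pdgfrb 1.92-fold (1459 ± 171 in DOX+3C+UNC, against 769 ± 158 in DOX+3C, SD, n = 3 each; log2 fold change 0.94 ± 0.15, limma adjusted p = 0.000678). This call held in all 21 alternative settings, with adjusted p of at most 0.00714. UNC without 3C gave 0.44 ± 0.15 (1043 ± 188 in DOX+UNC, against 767 ± 148 in DOX; limma adjusted p = 0.296). The difference of both UNC effects was 0.49 ± 0.22 (limma adjusted p = 0.404). Blocked by replicate number, UNC without 3C was called for Pdgfrb (0.44, limma adjusted p = 0.00289), and so was the difference of the UNC effects for Pdgfrb (0.49, limma adjusted p = 0.0212) and for Pdgfra (0.68, limma adjusted p = 0.0391). By the check above, 1 of the correlations between DOX+UNC and DOX fell just short of the 0.1 that each had to exceed (0.22, 0.21 and 0.09). The others were above those of 3C without UNC (0.11, 0.16 and 0.13), which was taken as paired. Taken alone, the check therefore does not settle whether DOX+UNC and DOX are paired. The comparisons taken as paired do link their same-numbered libraries, through DOX+3C+UNC and DOX+3C. If those pairings hold, the blocked fit is the one that applies to UNC without 3C as well. Whether UNC without 3C changed Pdgfrb, and whether its effect depends on 3C, turned on the fit. 3C alone gave no detectable difference (769 ± 158 in DOX+3C, against 767 ± 148 in DOX; -0.00 ± 0.15, interval -0.32 to 0.32, limma adjusted p = 0.999). 3C with UNC raised it (0.49 ± 0.15, limma adjusted p = 0.0132), a call lost with DESeq2 (adjusted p = 0.0536) and without DOX+UNC replicate 2 (0.0898) or DOX+3C+UNC replicate 3 (0.0716).

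Pdgfrl, the receptor-like gene, showed the strongest separation by 3C in limma's test among the 7. It had 79.2, 137 and 88.4 normalised counts in DOX+3C+UNC, 62.9, 106 and 74.1 in DOX+3C, 608, 573 and 565 in DOX+UNC, and 639, 616 and 542 in DOX. The 6 libraries with 3C lay far below the 6 without it, and groups that differed only in UNC overlapped. Pdgfrl was 7.48-fold lower with 3C alone (81.0 ± 22.3 in DOX+3C, against 599 ± 50.8 in DOX, SD, n = 3 each; -2.90 ± 0.18, limma adjusted p = 3.52e-10). It was 5.85-fold lower with 3C in the presence of UNC (102 ± 31.0 in DOX+3C+UNC, against 582 ± 22.9 in DOX+UNC; -2.55 ± 0.18, limma adjusted p = 2.06e-09). UNC gave 0.32 ± 0.18 with 3C (limma adjusted p = 0.281) and -0.04 ± 0.18 without it (limma adjusted p = 0.976, interval -0.41 to 0.34).

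**Figure D2:**
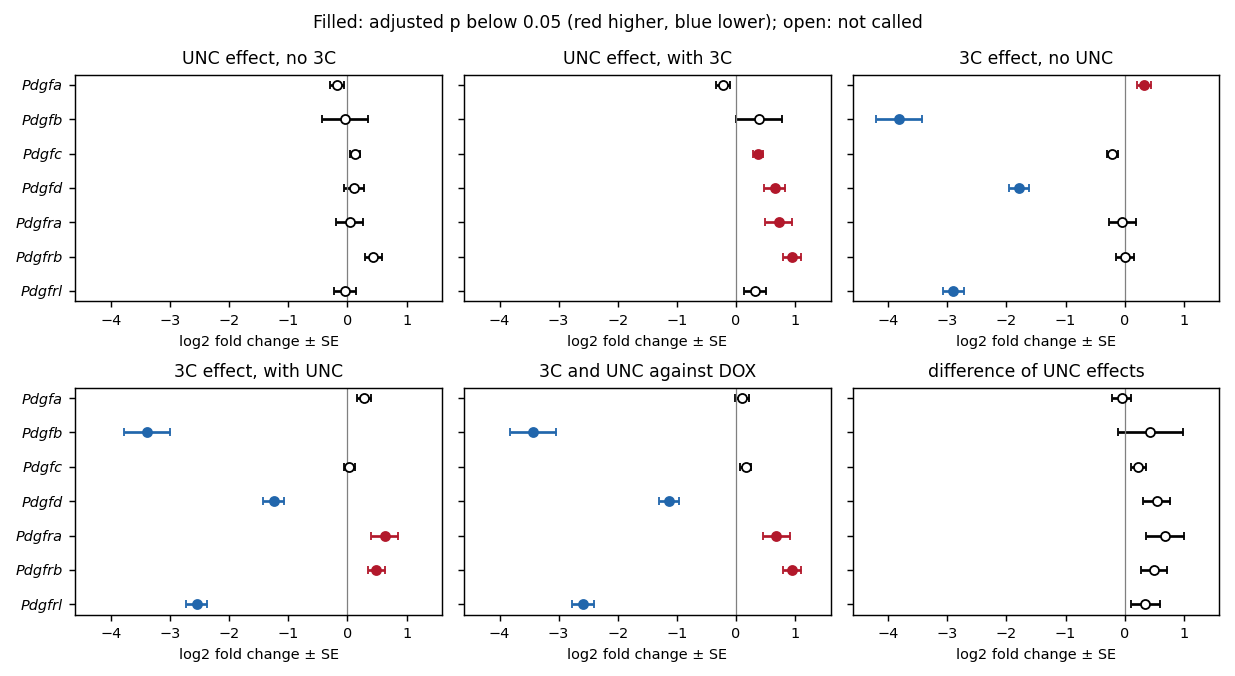
Log2 fold change ± SE (x axis, limma) of the 7 genes in 5 comparisons of reprogramming groups and in the difference of the UNC effects. Filled points are called at an adjusted p below 0.05 (red higher, blue lower): none for UNC without 3C, 4 higher for UNC with 3C, and Pdgfd and Pdgfrl lower wherever 3C is set against its absence, as are the points of Pdgfb, which passed the filter only through the groups without 3C.

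As counts, UNC with 3C raised 4 of the 7 members and lowered 0, where 11.6% of the 16138 genes tested were called, 7.71% as higher and 3.94% as lower. Groups did not overlap for 4 members, beside 28.8% of all genes. Blocked by replicate number, the genes called were 2871 instead of 1880, and 5 members were called. UNC without 3C changed 0 of the 7 (limma), where 0.607% of all genes were called, and groups overlapped for all 7, beside 15.2% of genes whose groups did not. At an unadjusted p below 0.05 in limma, 1 member (Pdgfrb) would pass there, and neither edgeR nor DESeq2 on the recovered reads called a member.

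Pdgfb is left out of the counts for 3C, for the reason given with its reads. For 3C without UNC, 1 of the 6 other members was higher and 2 were lower, beside 49.4% of all genes called (24.7% as higher and 24.7% as lower), so a share of 3 in 6 is near that background. Groups did not overlap for 4 of the 6, beside 57.6% of all genes. For 3C with UNC, 2 were higher and 2 lower beside 47.4% (23.9% as higher and 23.5% as lower), and groups did not overlap for 3, beside 54.4%. For DOX+3C+UNC against DOX, 2 were higher and 2 lower beside 49.9% (25.3% as higher and 24.6% as lower), and groups did not overlap for 3, beside 55.4%. These comparisons share libraries, and their counts are not independent of each other. The difference of the UNC effects was called for 0 members by limma, edgeR and DESeq2 without the block, beside 0.0620% of all genes in limma; at an unadjusted p below 0.05 it held 2, Pdgfrb and Pdgfd. The median log2 fold change of the 6 was 0.51 for UNC with 3C and -0.12 for 3C without UNC, beside -0.00 and 0.02 for all genes tested.

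In DOX+3C+UNC against DOX, where both 3C and UNC differ, both receptors were higher (Pdgfrb 0.94 ± 0.15, limma adjusted p = 6.2e-05, and Pdgfra as above), while Pdgfd (-1.14 ± 0.17, limma adjusted p = 1.64e-05) and Pdgfrl (-2.59 ± 0.18, limma adjusted p = 1.63e-09) were lower. Pdgfb was 13.3-fold lower on summed reads (7 against 84, interval 6.19 to 34.2). Pdgfa (0.10 ± 0.12, limma adjusted p = 0.495) and Pdgfc (0.16 ± 0.09, limma adjusted p = 0.147) were not called.

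Fibroblast markers moved with these groups. The 8 markers summed to 11410 to 12182 CPM per library in DOX+3C+UNC, 8587 to 9468 in DOX+3C, 16035 to 16798 in DOX+UNC, and 13930 to 14831 in DOX. Of the 8, 6 rose and 0 fell for UNC with 3C, beside 7.71% of all genes called as higher and 3.94% as lower. For 3C without UNC 0 rose and 5 fell, beside 24.7% called as higher and 24.7% as lower. Per 1000 CPM of these markers, Pdgfrb was at 7.53 to 8.91 CPM in DOX+3C+UNC, 4.63 to 6.64 in DOX+3C, 3.19 to 4.56 in DOX+UNC, and 2.71 to 4.25 in DOX. DOX+3C+UNC thus lay above DOX+3C per marker sum. The largest part of that sum was Vim, which differed little (mean 5744 CPM in DOX+3C+UNC, against 5189 in DOX+3C), as did Fn1 (994 against 900). The other markers differed more: Col1a1 1243 against 664, Thy1 235 against 131, Col1a2 2595 against 1593, Col3a1 875 against 574, Dcn 5.82 against 3.63 and Lum 2.32 against 0.984. Pdgfrb itself averaged 96.3 against 51.2 CPM, and ratios to single markers were not formed. Pdgfra was at 1.69 to 2.57 in DOX+3C+UNC and 1.47 to 1.91 in DOX+3C, and these overlapped. Pdgfd overlapped as well, at 0.357 to 0.575 in DOX+3C+UNC and 0.315 to 0.484 in DOX+3C, and so did Pdgfc, at 2.44 to 2.81 and 2.53 to 2.70 in the same groups. Pdgfrl was at 0.439 to 0.824 in DOX+3C, against 2.41 to 2.96 in DOX, without overlap. These ratios were formed after the values had been seen. In bulk RNA, fewer cells of a type and less RNA per cell cannot be told apart, and the part of the fibroblast markers in the PDGF differences was not tested.

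**Figure D3:**
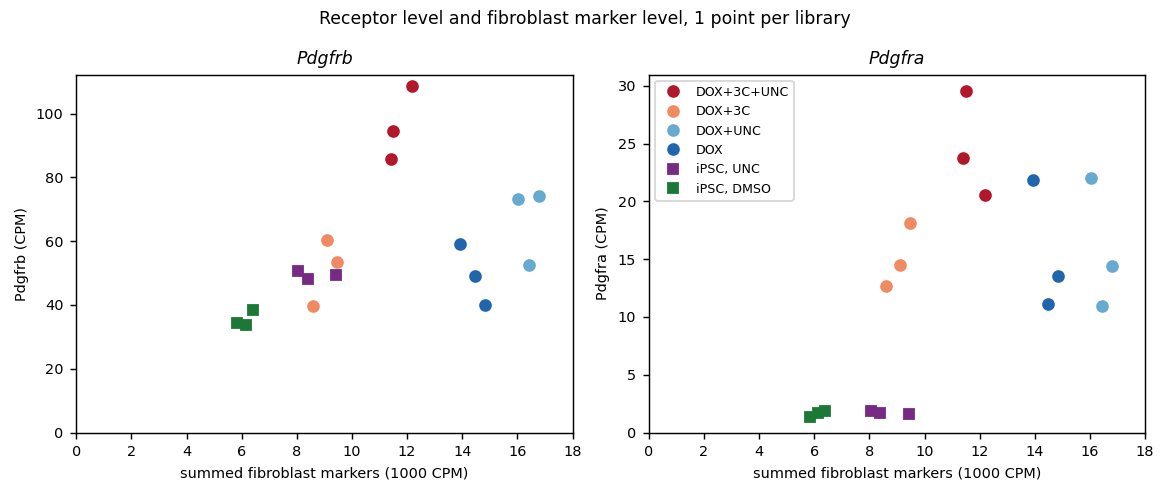
CPM of Pdgfrb (left) and Pdgfra (right) on the y axes against the summed CPM of 8 fibroblast markers (x axis, in units of 1000), with 1 point per library and both axes from 0. Circles are reprogramming libraries and squares are iPSC libraries, whose tables were made separately. The DOX+3C+UNC circles stand above all others for Pdgfrb. The marker sum is larger in DOX+3C+UNC than in DOX+3C, and larger again in DOX and DOX+UNC.

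Mural cells, the pericytes and smooth muscle cells that carry the beta receptor in tissue, were followed with 9 markers. These summed to 817 to 977 CPM per library in DOX+3C+UNC, 468 to 529 in DOX+3C, 3061 to 3568 in DOX+UNC, and 2427 to 2759 in DOX. Most of this was Acta2, smooth muscle actin, which fibroblasts in culture also express (757 ± 90.9 CPM in DOX+3C+UNC, against 376 ± 40.1 in DOX+3C, 3123 ± 263 in DOX+UNC and 2448 ± 181 in DOX). Kcnj8, a channel of pericytes named after its value was seen, stayed at a mean of at most 0.145 CPM in these groups, and Abcc9 at most 0.0784 CPM. The other mural markers did not move one way. In DOX+3C+UNC, DOX+3C, DOX+UNC and DOX, Rgs5 averaged 7.08, 10.6, 2.38 and 2.76 CPM. In that order Notch3 averaged 24.3, 25.4, 17.4 and 18.6, and Des 17.5, 4.41, 5.91 and 3.32. Cspg4 averaged 73.6, 66.0, 143 and 121, Mcam 21.2, 23.8, 48.3 and 39.0, and Myh11 3.55, 1.09, 7.21 and 2.15. Of the 7 mural markers tested, 3 rose and 0 fell for UNC with 3C, beside 7.71% and 3.94% of all genes. For 3C without UNC 2 rose and 4 fell, beside 24.7% and 24.7%. Of 6 endothelial markers 2 were tested, and the 6 summed to 86.0 to 123 CPM in DOX+3C+UNC and 160 to 182 in DOX. Nearly all of this was 1 gene, the angiopoietin receptor gene Tek (105 ± 18.6 CPM in DOX+3C+UNC, against 170 ± 11.3 in DOX). Cldn5 was at 0 in both of these groups, and Pecam1, Cdh5, Emcn and Kdr, named after their values were seen, had means of at most 0.384 CPM in DOX+3C+UNC and 0.669 CPM in DOX. Megakaryocyte markers, from cells known for PDGF-B, summed to at most 3.19 CPM, with Itga2b highest in DOX+3C+UNC (1.46 CPM) and Gp9 at 0 in each of the 4 groups. Macrophage markers summed to 7.41 to 30.0 CPM, primitive endoderm markers to 34.9 to 76.4 and epithelial markers to 6.12 to 21.9 over the reprogramming libraries. The highest gene of each was Lyz2 for macrophages (10.0 CPM in DOX+3C+UNC, against 6.17 in DOX), Dab2 for primitive endoderm (40.6 against 67.8 CPM), where Sox17 was at 0 in each of the 4 groups, and Cdh1 for epithelium (15.5 against 4.62 CPM). The part of these markers in the PDGF values was not tested.

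In iPSC, Pdgfrb was higher after derivation with UNC. It had 48.1, 50.5 and 49.4 CPM in iPSC UNC, against 33.7, 38.5 and 34.5 CPM in iPSC DMSO, and the groups did not overlap. The difference was called (49.3 ± 1.22 against 35.5 ± 2.55, SD, n = 3 each; 0.48 ± 0.07, edgeR adjusted p = 0.00561), the SE here being the size of the fold change over the root of its F statistic. Of the 7 members 1 rose and 0 fell, where 1.31% of 17987 genes were called, 1.27% as higher and 0.0389% as lower. These were 229 genes higher and 7 lower by edgeR (97% of calls higher), against 311 higher and 59 lower by DESeq2 (84.1%). Pdgfb, in contrast, was lower in all 3 libraries of iPSC UNC (7.11, 8.88 and 8.47 CPM) than in any of iPSC DMSO (10.5, 12.1 and 19.9 CPM). It was not called by edgeR (-0.79 ± 0.21, adjusted p = 0.133), while DESeq2 called it (-0.78, adjusted p = 0.00478). Its size rested in part on iPSC DMSO replicate 3, the library at 19.9 CPM: without it the value was -0.47 (edgeR adjusted p = 0.156). Without each other library it lay between -0.95 and -0.69, with edgeR's adjusted p from 0.0499 (without iPSC DMSO replicate 1) to 0.522 (without iPSC UNC replicate 1). Over all genes iPSC DMSO replicate 3 differed from replicates 1 and 2 by a chi-square per degree of freedom of 10.8 and 8.88, against 3.17 between those. It was not alone in this: iPSC UNC replicate 3 differed from its replicates 1 and 2 by 7.74 and 11, against 3.16 between those. Pdgfc (29.2 ± 2.44 CPM in iPSC UNC, against 23.5 ± 2.37 in iPSC DMSO; 0.32 ± 0.10, edgeR adjusted p = 0.197) and Pdgfd (3.10 ± 0.756 against 1.79 ± 0.358 CPM; 0.80 ± 0.24, edgeR adjusted p = 0.196) were not called although their groups did not overlap. Groups did not overlap for 4 of the 7 members, beside 19.2% of all genes. Pdgfra had 42, 45 and 35 reads per library in iPSC UNC and 41, 47 and 32 in iPSC DMSO, a low level that did not differ detectably (0.08 ± 0.22, edgeR adjusted p = 0.919). Pdgfa (-0.07 ± 0.07, edgeR adjusted p = 0.7) and Pdgfrl (0.06 ± 0.13, edgeR adjusted p = 0.89) were not called either.

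**Figure D4:**
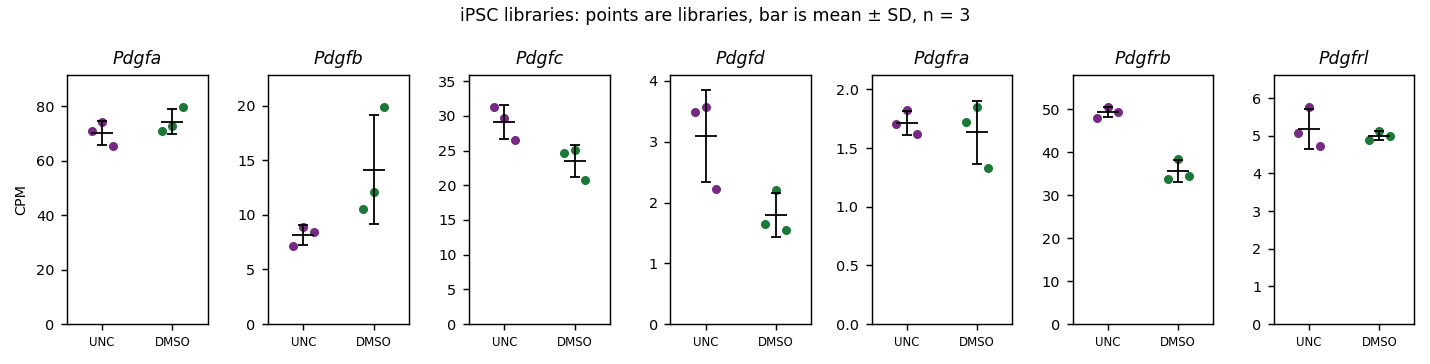
CPM (y axes, linear, from 0) of the 7 genes in each iPSC library, with UNC on the left and DMSO on the right of each panel. Points are libraries, bars are means and whiskers are SD (n = 3); Pdgfrb sits at 48.1 to 50.5 CPM with UNC, above the 33.7 to 38.5 CPM with DMSO.

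Fibroblast markers, led by Fn1 (5703 ± 760 CPM in iPSC UNC, against 4260 ± 119 in iPSC DMSO), moved with the iPSC groups too. They summed to 8043 to 9420 CPM per library in iPSC UNC, against 5829 to 6393 CPM in iPSC DMSO. Fn1 made up most of that sum, and averaged at most 1765 CPM in the reprogramming groups. The sum in iPSC therefore need not measure fibroblast RNA alone. Of 7 tested markers 6 rose and 0 fell, beside 1.27% and 0.0389% of all genes. Per 1000 CPM of these markers Pdgfrb was at 5.24 to 6.28 CPM in iPSC UNC and 5.49 to 6.01 CPM in iPSC DMSO, so that on this scale the groups overlapped. Pdgfb stayed apart, at 0.847 to 1.10 in iPSC UNC and 1.71 to 3.41 in iPSC DMSO. The part of fibroblast RNA in the Pdgfrb difference was not tested. Pluripotency markers summed to 3783 to 4107 CPM in iPSC UNC and 4222 to 4289 in iPSC DMSO, primitive endoderm markers to 13.4 to 16.3 and 13.1 to 14.0 in the same groups, and epithelial markers to 821 to 833 and 875 to 989. Mural markers summed to 743 to 787 CPM in iPSC UNC and 597 to 618 in iPSC DMSO. Of 7 tested mural markers 3 rose and 0 fell, beside the same shares of all genes. Endothelial markers summed to 115 to 119 and 121 to 132, macrophage markers to 21 to 23.1 and 19.0 to 32.6, and megakaryocyte markers to 2.23 to 3.01 and 1.97 to 4.12 in the same groups. The endothelial sum was mostly Pecam1 (105 CPM in iPSC UNC, against 114 in iPSC DMSO). Set side by side without a test, since the tables were made separately, Pdgfra averaged 1.72 and 1.64 CPM in iPSC UNC and iPSC DMSO and 15.1 to 24.6 CPM in the reprogramming groups. Pdgfb averaged 8.16 and 14.2 CPM in the same iPSC groups and 0.111 to 2.33 CPM in the reprogramming groups.

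Ligand processing and binding was described with 10 genes. With 3C alone 1 rose and 7 fell (median -0.42), beside 24.7% of all genes called as higher and 24.7% as lower. Pcsk6, a proprotein convertase, was at 312 ± 17.4 in DOX+3C, against 692 ± 83.3 normalised counts in DOX (-1.14 ± 0.09, limma adjusted p = 1.02e-08), and Sparc, a matrix protein that binds PDGF, at -0.84 ± 0.05. St14, encoding matriptase, a protease known to cleave PDGF-D, rose (162 ± 24.9 in DOX+3C, against 53.4 ± 4.81 in DOX; 1.58 ± 0.22, limma adjusted p = 9.09e-06). UNC with 3C raised 3 and lowered 1 (median 0.09), beside 7.71% of all genes called as higher and 3.94% as lower. The risen genes were Plat, tissue plasminogen activator, which activates PDGF-C (1.02 ± 0.14), Plau, urokinase, which activates PDGF-D (0.88 ± 0.13), and Sparc (0.54 ± 0.05). St14, named after its value was seen, was the one that fell (-0.70). UNC without 3C raised 2, Plau (0.58 ± 0.13, limma adjusted p = 0.0393) and Sparc (0.25 ± 0.05, limma adjusted p = 0.0482), beside 0.607% of all genes called. The count ran from 0 to 3 when single libraries were left out. In iPSC 3 rose after UNC, beside 1.27% of all genes: Plau (1.02 ± 0.13), Sparc (0.48 ± 0.07) and Nrp1, a co-receptor (1.07 ± 0.16). That count was 1 without iPSC UNC replicate 1 and 5 with no filter.

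Receptor adaptors and effectors were described with 25 genes. With 3C alone 3 rose and 14 fell (median -0.15), beside 24.7% of all genes called as higher and 24.7% as lower. Fyn, a Src-family kinase that binds the activated receptor, was at 651 ± 48.1 in DOX+3C, against 1765 ± 132 normalised counts in DOX (-1.44 ± 0.08, limma adjusted p = 4.97e-11). The adaptors Shc1 (-0.99 ± 0.06) and Nck2 (-0.86 ± 0.06) fell too. UNC with 3C raised 4 and lowered 1 (median 0.04), beside 7.71% of all genes called as higher and 3.94% as lower. The total ran from 2 (without DOX+3C replicate 2 or DOX+3C+UNC replicate 1) to 6 when single libraries were left out. It was 3 without DOX+3C+UNC replicate 3. Stat5a, a transcription factor of cytokine and growth factor signalling, rose (858 ± 103 in DOX+3C+UNC, against 550 ± 115 in DOX+3C; 0.65 ± 0.16, limma adjusted p = 0.0105), as did Shc1 (0.31 ± 0.06), while the Ras exchange factor Sos1 fell (-0.30 ± 0.07). For UNC without 3C (limma) and in iPSC (edgeR), 0 of the 25 were called, beside 0.607% and 1.31% of all genes. DESeq2 called 1 in each.

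Negative regulators of receptor tyrosine kinase signalling were described with 10 genes. With 3C alone 0 rose and 6 fell (median -0.21), beside 24.7% of all genes called as higher and 24.7% as lower. The ERK phosphatase Dusp6 was at 590 ± 52.1 in DOX+3C, against 1977 ± 229 normalised counts in DOX (-1.74 ± 0.11, limma adjusted p = 3.14e-10), and the feedback inhibitors Spry1 (-1.53 ± 0.16) and Spry4 (-0.87 ± 0.12) fell with it. UNC with 3C raised 0 and lowered 2, beside 7.71% of all genes called as higher and 3.94% as lower. The lowered genes were Spry4 (337 ± 66.6 in DOX+3C+UNC, against 496 ± 63.9 in DOX+3C, -0.57 ± 0.12, limma adjusted p = 0.00465) and the ubiquitin ligase Cbl (-0.37 ± 0.10, limma adjusted p = 0.0243). The count was 1 when any 1 of the DOX+3C libraries, or DOX+3C+UNC replicate 1 or 3, was left out. In the presence of UNC, 3C raised 1 and lowered 6, beside 23.9% and 23.5% of all genes.

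Growth factor response genes, which serum and PDGF induce early, were described with 12. With 3C alone 3 rose and 6 fell (median -0.22), beside 24.7% of all genes called as higher and 24.7% as lower, so the list did not move one way. Egr2 was at 16 ± 2.38 in DOX+3C, against 228 ± 50.1 normalised counts in DOX (-3.73 ± 0.28, limma adjusted p = 4.34e-09), and Fos fell (-1.22 ± 0.09), whereas Ier3 rose (705 ± 55.4 in DOX+3C, against 194 ± 27.7 in DOX; 1.86 ± 0.11). UNC with 3C raised 3 and lowered 0 (median 0.26), beside 7.71% and 3.94% of all genes: the chemokine gene Ccl2 (0.57 ± 0.09) and the AP-1 genes Junb (0.31 ± 0.06) and Jun (0.22 ± 0.06). That count was 5 when blocked by replicate number and without DOX+3C+UNC replicate 2, and 2 to 5 over the fits that left out a library.

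Related receptors and ligands of the PDGF and VEGF superfamily were 16 names, of which 11 were tested in the reprogramming libraries. With 3C alone 5 rose and 2 fell, beside 24.7% of all genes called as higher and 24.7% as lower. Those that fell were the VEGF receptors Flt1 (25.0 ± 2.06 in DOX+3C, against 78.2 ± 14.6 in DOX, -1.59 ± 0.26) and Flt4 (8.13 ± 2.98 against 35.9 ± 7.73, -2.05 ± 0.37). With 3C, Flt4 sat near the low-value filter of 10, also in DOX+3C+UNC (10.5 ± 5.57). Its place among the tested genes may rest on the groups without 3C, so its call is not relied on. The ligand gene Vegfd rose (0.58 ± 0.12). UNC with 3C raised 3 and lowered 0, beside 7.71% and 3.94% of all genes. The raised genes were all ligands of receptors in the PDGF receptor family: Csf1 (4395 ± 69.1 in DOX+3C+UNC, against 3344 ± 92.5 in DOX+3C, 0.39 ± 0.06), Kitl (0.49 ± 0.09) and Il34 (0.54 ± 0.17, limma adjusted p = 0.042). In iPSC Csf1 rose after UNC (120 ± 4.47 CPM in iPSC UNC, against 64.4 ± 12.8 CPM in iPSC DMSO; 0.91 ± 0.12, edgeR adjusted p = 0.00363). These pathway counts stand beside the shares of all genes given above, and no list was tested as a set.

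**Figure D5:**
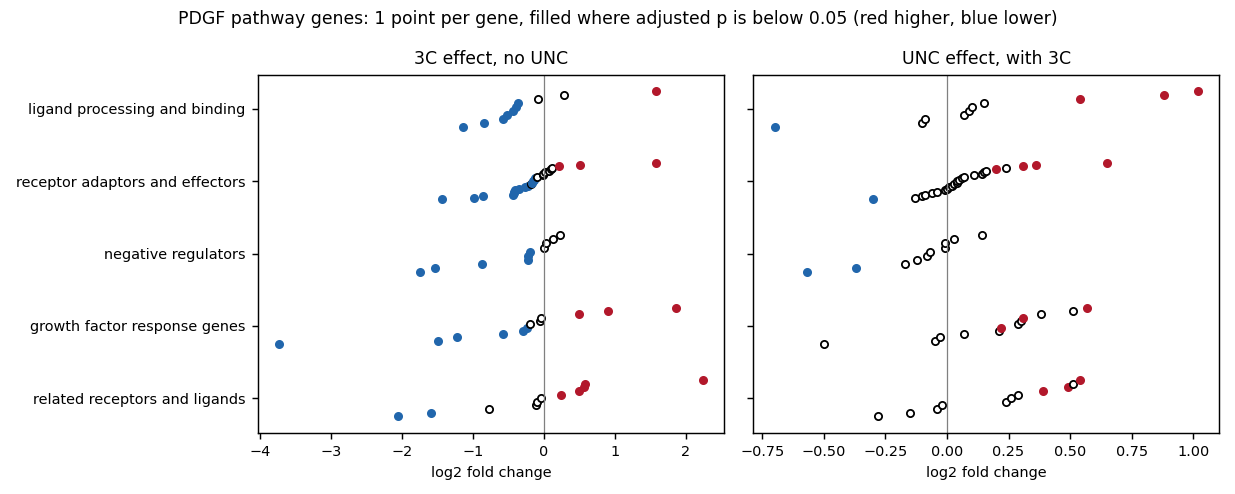
Log2 fold change (x axis, limma; scales differ between panels) of the genes of 5 PDGF pathway lists, 1 point per tested gene, for 3C without UNC (left) and UNC with 3C (right). Filled points are called at an adjusted p below 0.05 (red higher, blue lower); with 3C most called genes of the first 3 lists lie to the left of 0, as does Egr2 at -3.73 in the fourth.

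The genes whose profile over the 12 reprogramming libraries was most like that of each member were found by the root-mean-square (RMS) difference of log2(value + 1), each centred on its own mean. For Pdgfrb they were Thy1, a fibroblast surface antigen, Mxra8 and Sqor (RMS difference 0.16 each, against a spread of 0.44 for Pdgfrb itself). Thy1 averaged 3556 normalised counts in DOX+3C+UNC, 1963 in DOX+3C, 2784 in DOX+UNC and 2159 in DOX, the same order as Pdgfrb in all but the last pair of neighbours. For Pdgfra they were Gas7 (0.18), the growth factor gene Ptn (0.22) and the Wnt receptor gene Fzd1 (0.23), against a spread of 0.43. For Pdgfb they included Tagln, a smooth muscle actin-binding protein (0.26), and the matrix protein gene Tnc (0.35), against a spread of 1.84. Tagln averaged 244 normalised counts in DOX+3C+UNC and 152 in DOX+3C, against 2442 in DOX+UNC and 2002 in DOX. For Pdgfd they were Cnn2, a calponin (0.15), Ulbp1 (0.15) and Ddah1 (0.19), against 0.82, and for Pdgfrl U90926 (0.20), the adrenergic receptor gene Adra1d (0.25) and the endothelin gene Edn1 (0.25), against 1.39. For Pdgfc they were Sh3bgrl3 (0.06), Qsox1 (0.07) and Lamtor4 (0.08), against 0.17, and for Pdgfa Itpa, Rnf128 and Gm11633 (0.11 each), against 0.24. These are descriptions over 12 libraries that share 4 group means.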

How the data were processed

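Libraries were made with the TruSeq stranded total RNA kit with RiboZero Gold, per the labels' protocols. The mm10 build, and DESeq, HTSeq 0.5.4p3, TopHat2 2.1.0 and SAMtools 1.8, are named per the submitters' processing notes; settings, and whether counting used strand, are not given in the sources used here. The reprogramming table as deposited held a signal per gene and library, which is read counts divided by 1 factor per library by the authors: 100.0% of values were whole multiples of 1 step per library within 0.01 read, so whole reads were recovered. The iPSC table as deposited by the authors held raw counts. The titles' replicate numbers were used; for iPSC DMSO they disagree with the descriptions. Left out were 2 columns of the reprogramming values that no listed sample could claim. RefSeq tables gave symbols for 54042 of 54109 and 54723 of 54838 identifiers; they gave no exon lengths, so levels were not compared between genes.

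Reprogramming values were tested with limma 3.58.1 (R 4.3.3) on log2(value + 1), with all 12 libraries in 1 fit and an empirical Bayes trend, for the 16138 genes that reached 10 in 3 or more libraries. The count test on the recovered reads was an alternative: edgeR called 94 genes for UNC without 3C and 2096 for UNC with 3C. For iPSC counts the test was the quasi-likelihood test of edgeR 4.0.16 after TMM scaling and filterByExpr. P-values were adjusted by Benjamini-Hochberg over all genes tested. DESeq2 1.42.0, other scalings, pseudocounts, filters, the replicate block and leaving out each library were alternatives. The fits were tested on simulated data. Replicates differed by more than counting error (chi-square per degree of freedom 3.14 to 11.0 over 18 pairs).

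Same-numbered libraries of compared groups were checked by the correlation of their deviations from the group means. All 3 exceeded 0.1 for UNC with 3C (0.11, 0.19 and 0.15), 3C without UNC (0.11, 0.16 and 0.13) and 3C with UNC (0.19, 0.21 and 0.15), so these were taken as paired. The pairing comes from this hint, not from the labels. The main fits had no replicate block, so their p-values, calls and counts do not use it. Blocked fits are given beside them where a member's call changed. For the other comparisons at least 1 was lower. For UNC without 3C the margin was small (0.22, 0.21 and 0.09). All its differently numbered libraries had negative correlations. Deviations from a group mean cancel, so these are negative on average once the same-numbered ones are positive, and their sign adds little. By this check alone the pairing of DOX+UNC and DOX was left unsettled. The comparisons taken as paired link their same-numbered libraries through the groups with 3C.

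The members and the gene lists were chosen with earlier results of these data known. All 7 members were named; of each pathway list, up to 3 called genes with the smallest adjusted p per comparison; of each marker list in the reprogramming groups, the gene or genes with the highest level and those at 0 in all 4 groups, beside others named after their values were seen; and the 3 nearest profiles per member, of which 1 is not reported here.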

Additional observations from a re-analysis of the deposited data

How the results depend on the processing

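None of the alternatives turned the sign of a called member. Of the 7 members, 0 were called for UNC without 3C, but 1 with the replicate block (Pdgfrb, 0.44, limma adjusted p = 0.00289); all 98 genes called became 409 with that block, 170 with DESeq2 and 19 to 144 when a library was left out. Whether the replicate numbers pair that comparison was not settled by its own check, but the comparisons taken as paired link its same-numbered libraries. For UNC with 3C, 4 members became 2 to 4 when a library was left out, and 1880 genes became 1039 to 1917. For 3C with UNC, 5 members, Pdgfb counted, became 3 with DESeq2 and 3 to 5 when a library was left out. For the difference of the UNC effects, 0 members became 2 with the replicate block (Pdgfra, adjusted p = 0.0391, and Pdgfrb, adjusted p = 0.0212, limma), and 10 genes became 155 with DESeq2, 25 with library total scaling, 26 with a pseudocount of 8, 413 with the block and 0 to 70 when a library was left out. For iPSC, 1 member became 4 with no filter, 3 with the replicate block (Pdgfb and Pdgfc added, edgeR adjusted p = 0.0254 and 0.0440), 2 with DESeq2 and 1 to 2 when a library was left out; 236 genes became 823, 407, 370 and 85 to 216. The causes were not tested. Apart from these and the calls named in the report, the block changed no other member call. Over all members, comparisons and alternatives, 886 results kept their call, 33 lost it and 18 gained one; 8 had no adjusted p. Pdgfb was not among the genes tested with a filter of 50. Another scaling moved the median of all genes by at most 0.048 (log2). Depth limits Pdgfb in the groups with 3C (6 and 7 reads) most.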
